A study of Mus musculus with 30 samples.

Results

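The metabotropic glutamate receptors are G protein-coupled receptors for the transmitter glutamate. Grm2, Grm3, Grm4, Grm5, Grm7 and Grm8 were followed here by gene symbol, and all 6 were found among the 21412 genes measured in hippocampus. Their RNA was compared over 6 groups of 5 male BALB/c mice, an inbred strain, with 1 sequencing library per mouse. Ctr mice received a purified feed without added methylmercury (MeHg), an organic mercury compound that reaches the brain. MeHg was added to the feed at 0.28 mg per kg for LD mice and at 5 mg per kg for HD mice, and these diets were given for 11 weeks to mice that arrived at 2 to 3 weeks of age. Se_Ctr, Se_LD and Se_HD are labelled as given selenium without mercury, with the low dose and with the high dose. The series title names the selenium compound as selenium-methionine, and its amount is not given in the sources used here. Whether the mercury doses and the exposure time of these groups equal those of LD and HD is not given there either, so "low" and "high" across the diets follow the labels.

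Glutamate is the main excitatory transmitter of the brain. Its ionotropic receptors are channels, whereas the metabotropic receptors act more slowly through G proteins and tune how much transmitter is released and how strongly the receiving cell answers. Grm5 encodes mGlu5, a group I receptor that couples to Gq, activates phospholipase C and lies mostly on the receiving side of the synapse. Grm2 and Grm3 encode the group II receptors and Grm4, Grm7 and Grm8 encode group III receptors. Groups II and III couple to Gi/o, lower cyclic AMP and mostly dampen release from the presynaptic terminal. mGlu3 is also carried by astrocytes and responds to the peptide transmitter NAAG, and mGlu7 has a low affinity for glutamate and sits in the active zone.

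Values are normalized counts, the reads on a gene divided by a size factor of the library. The libraries held between 5768208 and 11510521 reads on genes, with a median of 9351470.5. The 12 markers of hippocampal excitatory neurons included the dentate marker Prox1 and the CA1 marker Wfs1. Of these, 11 had a mean of at least 1 normalized count while Pou3f1 lay below 1. The matched markers of thalamus (8), striatum (8) and cortex (6) all reached that mean too, so this count does not check the labelled tissue. The choroid plexus markers, genes of the tissue that lines the ventricles, summed to between 274 and 37721 normalized counts per mouse, and 0 of 8 were called in HD or Se_HD. Their median log2 fold change was 1.42 in HD, 0.75 in Se_HD and -0.97 in Se_LD, and the median sum was 10962 in Ctr and 27248.5 in HD. The part of this tissue in the receptor values was not tested. Some libraries stood apart. Ctr library 13 was the shallowest, and HD library 21 held 32820 normalized counts of Gfap, an intermediate filament of astrocytes, where the Ctr mice held between 1429.95 and 1988. HD library 21 also had the lowest excitatory neuron marker sum of the 30, 36692 against 50482 to 57315 in the other HD mice. Its striatum marker sum was the highest of the 30, 1716 against 572 to 813 in the other HD mice. The part of these markers in its receptor values was not tested. Se_Ctr library 28 had the highest sums of the 30 for the excitatory neuron markers, 75832.5 normalized counts against 47250.1 to 58839 in the other Se_Ctr mice, and for the dentate granule cell markers, 5226 against 3145 to 3817. It also held the highest Grm3 and Grm7 values of Se_Ctr and the lowest Grm8 value of the 30, and the part of these markers in them was not tested. LD library 8 and Se_LD libraries 11 and 29 had the highest thalamus marker sums of the 30, 3857, 3541 and 3635 normalized counts. The other LD mice held between 1376 and 1997 and the other Se_LD mice between 1411 and 1847. The part of thalamus tissue in the receptor values was not tested. Receptor calls that changed without any of these libraries are given with and without them. Because whole tissue was sequenced, fewer cells of a type and less RNA per cell cannot be told apart.

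Grm2 (ENSMUSG00000023192) lies on the minus strand of chr9:106546868-106558440 in NCBIM37, the build of the files, with 3320 bases of exon. Grm3 (ENSMUSG00000003974) spans chr5:9485236-9725352 on the minus strand with 3579 bases of exon. Grm8 (ENSMUSG00000024211) spans chr6:27225121-28085178 on the minus strand with 7850 bases of exon, which also hold the microRNA gene Mir592. Grm4 (ENSMUSG00000063239) lies on the minus strand of chr17:27559332-27650286, Grm5 (ENSMUSG00000049583) on the plus strand of chr7:94750952-95283417 and Grm7 (ENSMUSG00000056755) on the plus strand of chr6:110595575-111517224. Exons of Grm7 overlap another transcript on the opposite strand, and reads of the pair cannot be told apart unless counting used the strand, which the sources used here do not state. Each of the 6 is protein-coding and passed the filter on low values, with between 28 and 87 reads per library for Grm8 and between 2102 and 4320 for Grm5.

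The promoters of Grm2, Grm3 and Grm8 are shown because these 3 genes were lower at the high dose when both diets were averaged. The lines give the 250 bases before the start site of each gene from RefSeq on GRCm38.p6, a later build than that of the files, on the strand of the gene. They cover chr9:106656110-106656359, chr5:9725353-9725602 and, for the first of the 3 start sites of Grm8, chr6:28135147-28135396, all on the minus strand. Capitals mark the GC box GGGCGG, the core of sites for Sp1-type factors, which was searched on both strands.
Grm2: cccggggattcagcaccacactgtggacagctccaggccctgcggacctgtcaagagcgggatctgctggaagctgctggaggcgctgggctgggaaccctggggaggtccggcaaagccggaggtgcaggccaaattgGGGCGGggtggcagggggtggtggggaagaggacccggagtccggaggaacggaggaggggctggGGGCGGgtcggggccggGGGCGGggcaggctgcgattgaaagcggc
Grm3: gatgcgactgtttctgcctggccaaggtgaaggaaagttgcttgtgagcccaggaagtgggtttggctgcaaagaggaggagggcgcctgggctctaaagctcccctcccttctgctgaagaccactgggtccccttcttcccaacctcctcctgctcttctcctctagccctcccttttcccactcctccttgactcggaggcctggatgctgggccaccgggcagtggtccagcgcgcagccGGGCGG
Grm8: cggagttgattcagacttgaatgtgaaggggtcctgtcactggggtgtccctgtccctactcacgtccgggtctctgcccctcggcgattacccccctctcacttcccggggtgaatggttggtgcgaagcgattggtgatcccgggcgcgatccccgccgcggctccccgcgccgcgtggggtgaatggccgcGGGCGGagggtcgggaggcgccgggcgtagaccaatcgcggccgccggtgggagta

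Entries were found for 4 of the 6 genes, with 7 start sites in all. The Grm2 window held 3 GC boxes, and 8.47% of the 32851 mouse promoters of this length held 3 or more. The windows of Grm3 and of the first Grm8 start held 1 each, as did 2 overlapping windows of Grm7, and the other 2 Grm8 windows held 0, where 32.7% of all promoters held at least 1. Of these bases, 71.2% were G or C in Grm2, 62.4% in Grm3 and 68.4% in the first Grm8 window, with a median of 52.4% over all promoters. The metal response element core TGCNCNC, read on both strands, matched in 1 place in the Grm3 window and in 0 places in the Grm2 window and the first Grm8 window. The other Grm8 windows held it in 2 places and 1 place and the Grm7 windows in 0 places and 1 place, and 44.4% of all promoters held it. The antioxidant response element core TGACNNNGC, the cyclic AMP response motif TGACGT and the E-box CACGTG had 0 matches in the 7 windows, and 10.2%, 6.47% and 6.02% of all promoters held them. A match describes these letters and does not show a binding site.

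Per kb of exon, Grm5 was the most abundant of the 6 receptors in every one of the 30 libraries. Its level was 377 ± 49.5 normalized counts per kb (SD, n = 30). Grm3 followed at 98.0 ± 11.7 per kb, Grm7 at 85.1 ± 10.3 per kb and Grm2 at 71.7 ± 15.9 per kb. Grm4 had a level of 16.3 ± 6.43 per kb and Grm8, the lowest, 7.42 ± 1.85 per kb. The order of Grm3, Grm7 and Grm2 varied between mice. Grm3 exceeded Grm7 in 26 of 30 libraries, and Grm7 exceeded Grm2 in 23 of 30, so these neighbours overlapped. Grm5 exceeded Grm3, Grm2 exceeded Grm4 and Grm4 exceeded Grm8 in 30 of 30 libraries. Of the summed per-kb level of the 6 genes, Grm5 took between 54.8% in Se_LD and 60.9% in Se_HD on average, and Grm8 between 1.00% in HD and 1.37% in Ctr.

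**Figure D1:**
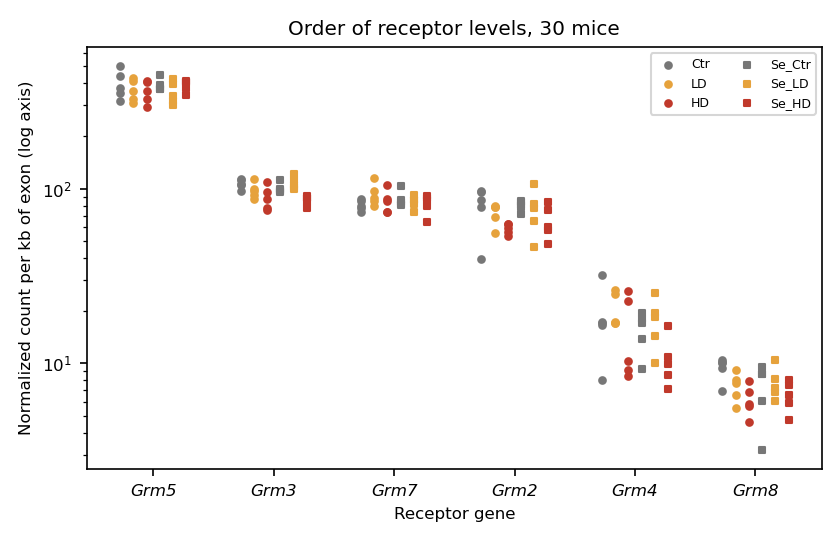
Level of each receptor gene in normalized counts per kb of exon on a log axis, with 1 point per mouse and the 6 groups side by side. The points of Grm5 lie between 293 and 502 per kb and those of Grm8 between 3.20 and 10.5, while the points of Grm3, Grm7 and Grm2 overlap.

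The first comparison asks what the high dose of MeHg in feed changed. Grm8 RNA of HD mice fell by 34.2% from its Ctr level. Its normalized counts in Ctr were 78.5, 74.2, 54.4, 80.3 and 82.3 in libraries 1, 7, 13, 19 and 25. In HD they were 36.2, 45.0, 61.9, 45.7 and 54.1 in libraries 3, 9, 15, 21 and 27. Thus 4 of 5 HD mice lay below every Ctr mouse, and library 15 overlapped with Ctr library 13. On the log2 scale the fold change was -0.60 with a standard error of 0.19, in limma's moderated test over 20031 genes, fitted to log2 values after adding 1 to each normalized count. A gene is called here when the unadjusted p is under 0.05 in the F test over Ctr, LD and HD and in the contrast, and Grm8 had a limma p of 0.0148 in the F test and of 0.00422 in the contrast. The Benjamini-Hochberg adjusted p over all genes was 0.256, with a range of 0.0679 to 0.506 over the alternative settings, so the change did not pass a correction for the number of genes. The exact two-sided permutation test gave p = 0.0159, where 5 mice against 5 allow 0.00794 at the lowest.

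Grm8 was the 1 of 6 receptors called in HD, and 5.09% of all genes tested were called, 1.73% in the lower direction. Of the log2 fold changes of the 6, 5 lay below 0, and their median was -0.27 where that of all genes was 0.0067. Grm3 lay near the threshold. Its normalized counts were 379, 347, 376, 408 and 399 in the Ctr mice and 313, 343, 272, 390.1 and 277 in the HD mice, in the library order given above. Of the HD mice, 4 lay below every Ctr mouse, and the exception was library 21. The log2 fold change was -0.27 with a standard error of 0.11, and limma gave a p of 0.0228 in the contrast and of 0.0703 in the F test, so that it was not called. Without HD library 21 the log2 fold change was -0.34, with a limma p of 0.0137 in the F test and of 0.00390 in the contrast, and Grm3 was then called. The exact permutation p with all mice was 0.0476.

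Grm2 depended on Ctr library 13. Its normalized counts were 285, 318, 131, 322 and 259 in the Ctr mice and 197, 187, 208, 179 and 208 in the HD mice. The HD mice formed a narrow band below 4 of the 5 Ctr mice, while library 13 lay below all of them. The log2 fold change was -0.36 with a standard error of 0.18 and a limma p of 0.0657, and the exact permutation p was 0.175. Without library 13 it was -0.59, with a limma p of 0.000109 and an adjusted p of 0.0556, and Grm2 was called. With library 13 and HD library 21 both left out, a setting chosen after seeing the data, the log2 fold change was -0.56 and 3 of the 6 receptors were called in HD, Grm2, Grm3 and Grm8.

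Grm4 spread widely within both groups. It had 170.3, 90.8, 42.5, 91.6 and 87.9 normalized counts in the Ctr mice and 45.0, 121, 139, 54.7 and 48.9 in the HD mice. The HD mice split into 3 low and 2 high ones, all inside the Ctr range. The log2 fold change was -0.28 with a 95% interval from -0.95 to 0.40, and it ranged from -0.53 to -0.040 without each mouse. The mouse with the highest thalamus marker sum also held the highest Grm4 value in Ctr, LD and Se_Ctr, libraries 1, 8 and 10. This was not so in HD, Se_LD and Se_HD, and the part of thalamus tissue in Grm4 was not tested. Grm5 lay between 2563 and 4049.85 normalized counts in Ctr and between 2363 and 3351 in HD, with medians of 3028 and 2926. Its log2 fold change of -0.14 had an interval from -25.0% to 10.2% of the Ctr level. Grm7 lay between 431 and 516 in Ctr and between 431 and 617 in HD, and its log2 fold change of 0.058 had an interval from -11.7% to 22.8%. The groups overlapped for these 3 genes, and the intervals for Grm5 and Grm7 leave room for changes of these sizes.

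**Figure D2:**
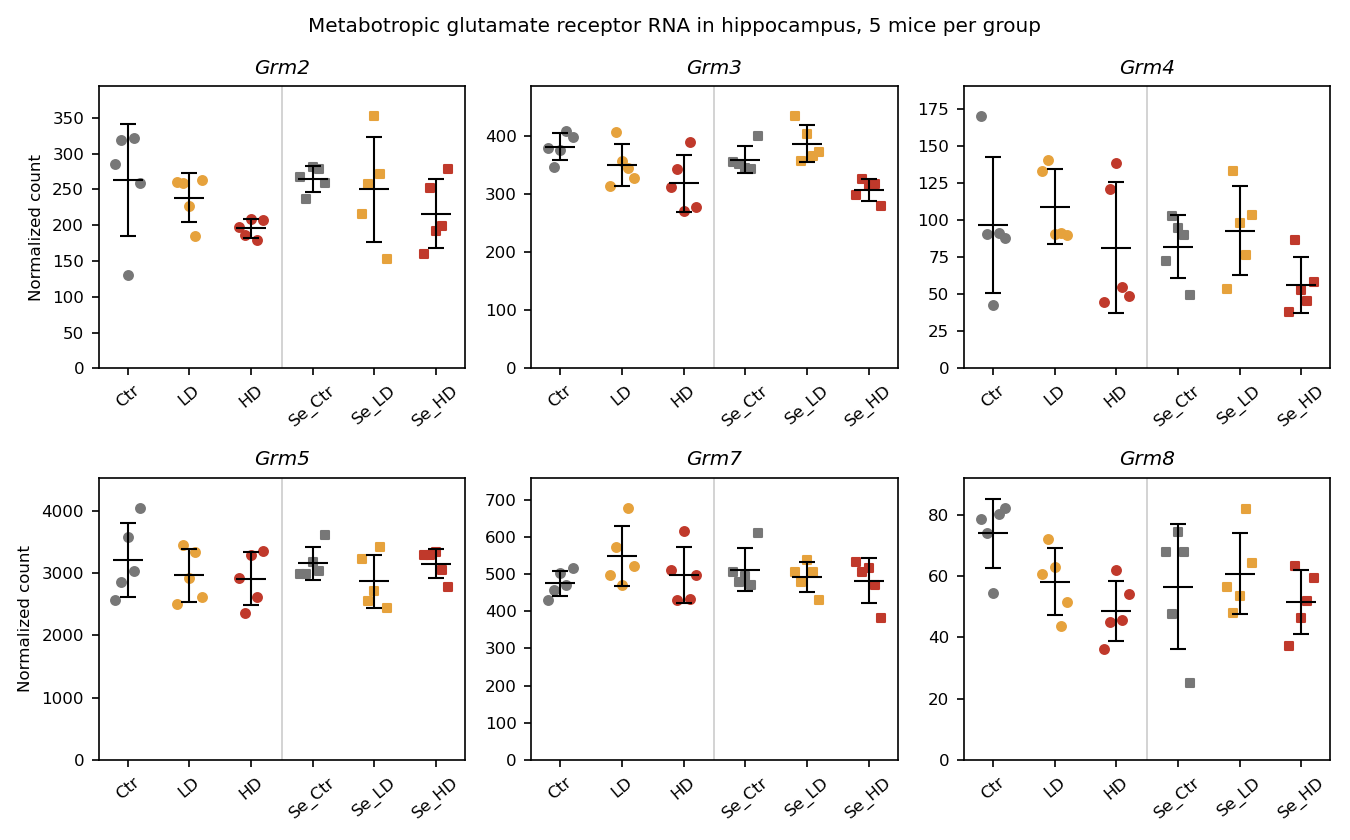
Normalized counts of the 6 receptor genes, with 1 point per mouse (circles without selenium, squares with selenium) and bars for the mean ± SD of 5 mice per group. In HD, 4 of 5 Grm8 values lie below every Ctr value, and in Se_HD every Grm3 value lies below every Se_Ctr value.

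The second comparison asks the same of the high dose in the groups labelled with selenium. Grm3 RNA of Se_HD mice fell by 14.4% from its Se_Ctr level. Its normalized counts were 356, 352, 346, 343 and 399.6 in Se_Ctr libraries 4, 10, 16, 22 and 28. In Se_HD libraries 6, 12, 18, 24 and 30 they were 299, 326, 316, 317 and 279. The groups did not overlap, which was so in the lower direction for 0.32% of the 19679 genes tested. The log2 fold change was -0.22 with a standard error of 0.073, limma gave a p of 0.00588 in the contrast and of 0.000695 in the F test, and the exact permutation p was 0.00794, the lowest possible. The adjusted p was 1.00, with a range of 0.877 to 1 over the alternatives. The spread of Grm3 was small in Se_Ctr and Se_HD, with coefficients of variation of 6.41% and 6.13%.

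Grm4 was the other receptor called lower in Se_HD. It had 72.8, 103, 95.1, 90.2 and 49.3 normalized counts in the Se_Ctr mice and 38.2, 86.9, 52.7, 45.3 and 58.0 in the Se_HD mice. Of the Se_HD mice, 2 lay below every Se_Ctr mouse and the groups overlapped. Its log2 fold change was -0.55 with a standard error of 0.24 and a limma p of 0.0325, an adjusted p of 1.00, with a range of 0.929 to 1, and an exact permutation p of 0.0873. The call was lost without any one of Se_Ctr libraries 10, 16 and 22 or of Se_HD libraries 6, 18 and 24, with limma p between 0.0507 and 0.0998. It was also lost in limma without the variance trend and with all 30 libraries in the fit, with p of 0.0635 and 0.0837. In all, 2 of 6 receptors were called in Se_HD, where 2.06% of the genes tested were called, 0.777% in the lower direction.

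Grm2 had 267, 236, 281, 278 and 259 normalized counts in the Se_Ctr mice and 159, 252, 192, 199 and 279 in the Se_HD mice. Se_HD libraries 6, 18 and 24 lay below every Se_Ctr mouse, and libraries 12 and 30 lay within the Se_Ctr range. Its log2 fold change was -0.31 with a standard error of 0.17 and a limma p of 0.0739. Grm8 had 67.8, 47.5, 74.3, 68.0 and 25.1 normalized counts in the Se_Ctr mice and 37.0, 63.3, 46.3, 51.9 and 59.2 in the Se_HD mice. These groups overlapped fully, since Se_Ctr library 28 held the lowest value of the 10, and the log2 fold change was -0.059 with a 95% interval from -0.56 to 0.44. Grm5 and Grm7 had log2 fold changes of -0.0020 and -0.092, with intervals from -12.1% to 13.4% and from -17.9% to 7.15%.

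When the high dose was averaged over both diets in a fit over the 30 libraries, 3 of 6 receptors were called lower at an unadjusted p under 0.05 in the contrast. Of the 21383 genes tested there, 9.09% were called, 3.81% in the lower direction. Grm3 fell by 15.7%, with a 95% interval from -23.0% to -7.82%, a limma p of 0.000468 and an adjusted p of 0.0962, which ranged from 0.0331 to 0.207 over the alternatives. Grm2 fell by 20.8%, with an interval from -34.4% to -4.51%, a limma p of 0.0161 and an adjusted p of 0.397. Grm8 fell by 20.5%, with an interval from -36.2% to -0.945%, a limma p of 0.0414 and an adjusted p of 0.532. The calls of Grm2 and Grm3 held without any one mouse, while that of Grm8 was lost without any one of 12 of the 20 mice in this contrast. The limma p of Grm8 lay between 0.0529 and 0.0959 in those fits. It was 0.0526 with sets of 6 consecutive library numbers, each with 1 mouse per group, as a covariate and 0.127 with reads thinned to equal depth, and the call was lost in both. Grm4 changed by -0.41 on the log2 scale with an interval from -0.85 to 0.030 and was not called. Leaving out Ctr library 13 moved it to -0.54, at a limma p of 0.0131 and an adjusted p of 0.314, and it was called, as it was without any one of 4 other mice, HD libraries 9 and 15, Se_Ctr library 28 and Se_HD library 12. Without library 13 and HD library 21 together it was -0.49 with a limma p of 0.0259. Grm5 and Grm7 had intervals from -15.2% to 7.08% and from -11.0% to 9.74%.

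**Figure D3:**
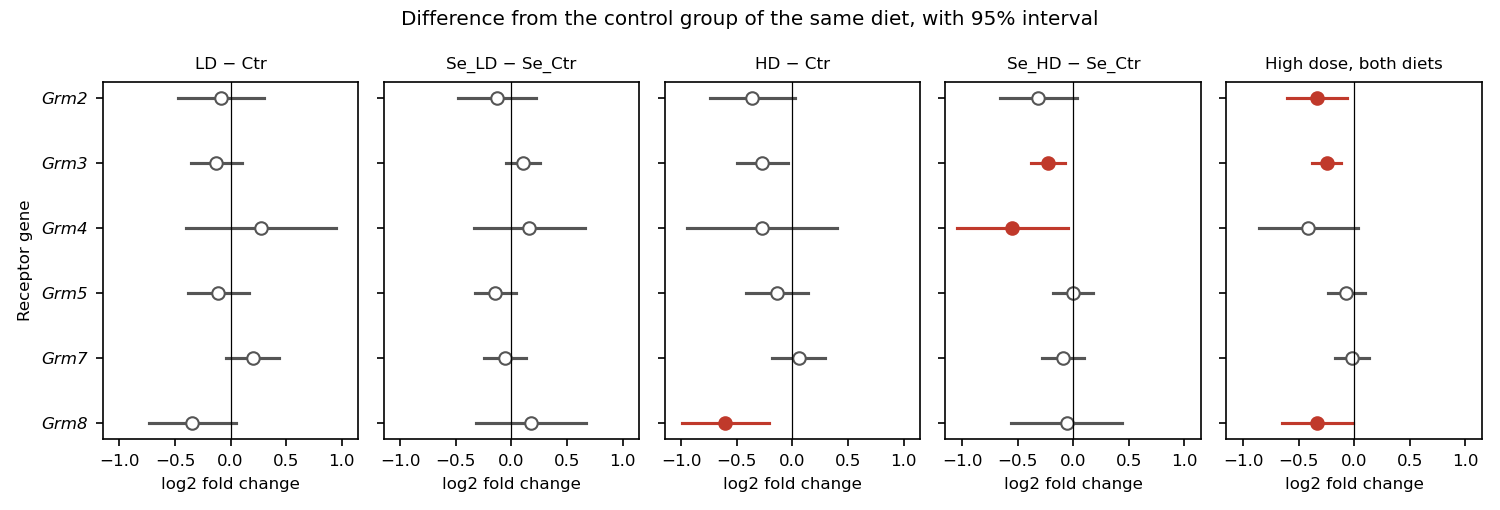
Log2 fold change of each receptor gene from the control group of its diet, with its 95% interval, for the low dose, the high dose and the high dose averaged over both diets. Filled red points passed the call rule of that comparison and lie on the lower side, with Grm8 in HD, Grm3 and Grm4 in Se_HD, and Grm2, Grm3 and Grm8 in the average.

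At the low dose, 0 of 6 receptors were called in LD and 0 of 6 in Se_LD, where 1.46% of the genes were called in each, and 0 of 6 had an unadjusted limma p under 0.05 in the contrast alone, where 3.01% of genes did in LD and 3.31% in Se_LD. With edgeR and with DESeq2 on the recovered reads the counts were 0 as well. Grm8 had 60.7, 72.2, 62.8, 43.8 and 51.4 normalized counts in LD libraries 2, 8, 14, 20 and 26. The LD mice lay below 4 of the 5 Ctr mice, and Ctr library 13 lay inside the LD range. Grm8 in LD had a log2 fold change of -0.35 with a 95% interval from -0.74 to 0.045. Without Ctr library 13, Grm8 and Grm2 were called lower in LD, with log2 fold changes of -0.45 and -0.32 and limma p of 0.0272 and 0.0178, and without LD library 8 Grm8 was called at -0.43 with a limma p of 0.0402. Grm7, the receptor of the active zone, had 498, 572, 471, 679 and 523 normalized counts in LD against 431, 456, 502, 469.6 and 516 in Ctr. Its log2 fold change of 0.20 had an interval from -2.74% to 35.3%.

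Grm3 had 314, 407, 357, 345 and 328 normalized counts in LD and 434, 357, 403, 366 and 373 in Se_LD libraries 5, 11, 17, 23 and 29. Its log2 fold change was -0.13 in LD and 0.10 in Se_LD, and neither was called. Of the LD mice, 3 lay below every Ctr mouse, and the 5 Se_LD mice lay above the Se_Ctr median and above 4 of the 5 Se_Ctr mice, the exception being library 28, with a limma p of 0.168 and an exact permutation p of 0.143. Grm2 had 260.0, 259, 227, 184 and 263 in LD and 216, 258, 352, 271 and 153 in Se_LD. Grm4 had 133, 141, 91.0, 91.4 and 90.0 in LD and 53.7, 134, 97.9, 76.4 and 103 in Se_LD. All 5 LD values of Grm2 lay below the Ctr median and above Ctr library 13. The Grm2 values of Se_LD and the Grm4 values of LD and Se_LD overlapped those of their controls, and the log2 fold changes of both genes lay between -0.13 and 0.28. That of Grm4 in LD, 0.28, ranged from 0.018 to 0.51 without each mouse. Grm8 in Se_LD ranged from 47.8 to 81.7 and Grm5 from 2443 to 3415. The Grm5 log2 fold change in Se_LD was -0.14 with an interval from -20.4% to 2.76%, and without Se_LD library 23 it was -0.21 with a limma p of 0.0232 and was called.

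The design also asks what selenium changed at each dose of mercury. Without mercury, Grm8 was the 1 of 6 receptors called, lower in Se_Ctr, where 4% of the 21383 genes were called. This difference had a log2 fold change of -0.46 with a standard error of 0.22 and a limma p of 0.0444, the adjusted p was 1, with a range of 0.863 to 1, and the exact permutation p was 0.159. Se_Ctr libraries 10 and 28 lay below every Ctr mouse and the other 3 lay within the Ctr range. The call was lost without any one of 6 mice, with limma p between 0.0641 and 0.306, the highest without Se_Ctr library 28, where the log2 fold change was -0.20. It was also lost with edgeR, DESeq2, quantile normalization, the covariate of library numbers, no trend and thinned reads, with p between 0.0508 and 0.0799. Between Se_LD and LD 0 of 6 receptors were called, where 2.86% of genes were, and between Se_HD and HD 0 of 6 were called, where 8.38% of genes were. Here too a call is an unadjusted limma p under 0.05 in the contrast. Grm4 had the lowest limma p at the high dose, with 56.2 ± 18.7 normalized counts in Se_HD and 81.6 ± 44.5 in HD (SD, n = 5), and p was 0.180.

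The interaction contrasts test whether the effect of mercury differed between diets. For the high dose, 0 of 6 receptors passed, where 4.77% of genes did, and for the low dose 0 of 6 passed, where 3.75% did. Grm8 came nearest at the high dose, where the fold change with selenium was 45.9% above that without it, with a 95% interval from -6.12% to 127% and a limma p of 0.0906. On the log2 scale this Grm8 difference was 0.54, and it ranged from 0.28 to 0.67 without each mouse. It was lowest without Se_Ctr library 28, whose Grm8 value was 25.1 normalized counts. At the low dose Grm3 came nearest, with a difference of 0.23, an interval from -0.027 to 0.49 and a limma p of 0.0771. The intervals are wide, so that the Grm8 effect in HD is not shown to differ from that in Se_HD. For Grm3 the difference between the high-dose effects was 0.044, with an interval from -0.21 to 0.30. The contrasts of HD and of selenium share control mice and are not independent of each other.

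The partners of these receptors were described by lists of pathway genes. The counts of these lists stand beside 5.09% of all genes called in HD, 1.73% lower and 3.36% higher. Of 9 genes of Gq signalling, the route used by mGlu5, 2 fell in HD. Prkcb, a protein kinase C, fell by 0.30 on the log2 scale with a limma p of 0.00816, and Plcb4, a phospholipase C, fell by 0.43 with a limma p of 0.0239. In Se_LD Plcb4 was called in the other direction, higher by 0.52 with a limma p of 0.0236. Thalamus markers were also higher in that group, and their part in the Plcb4 value was not tested. Of 16 genes of Gi/o signalling, the route of groups II and III, 4 fell in HD and 0 rose. Gnb1 is a G protein beta subunit and fell by 0.25 on the log2 scale, from 6036 ± 291 to 5065 ± 216 normalized counts (SD, n = 5). Adcy1, Adcy2 and Adcy8 are adenylyl cyclases, the enzymes that make cyclic AMP, and fell by 0.39, 0.29 and 0.38. The Gi/o count fell without HD library 21, which had the lowest sum of the list, 24399 normalized counts. The other HD mice held between 26992 and 31125 and the Ctr mice between 30166 and 33588. Without library 21, which was tried for the lists after seeing the data, 1 of the 16 was called lower, Adcy2 at -0.27, while Gnb1, Adcy1 and Adcy8 had -0.24, -0.22 and -0.28 and were not called. Gnb1 and Adcy8 then passed in the contrast, with limma p of 0.0250 and 0.0360, but not in the F test. Over all genes, 262 of 19828 were then called lower, where 346 of 20031 were with library 21. Without Ctr library 13 the count was 3, with Gnb1 at -0.25 and not called, and 420 of 19730 genes were called lower. Both genes of the Gq list were called without library 13 and without library 21. Averaged over both diets, the Gi/o list had 3 genes lower, Gnb1, Adcy1 and Adcy2, and 2 higher, Gng3, a G protein gamma subunit, and Adcy5, which are named here after their values were seen, where 3.81% of all genes were called lower and 5.28% higher. Gnb1 was not called in this average without library 13 or library 21. In Se_HD, 0 genes of either list were called, and the differences between the diets were not tested for these genes. The median log2 fold change of the Gi/o list was -0.12 in HD and -0.046 in Se_HD, where those of all genes were 0.0067 and -0.0056.

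Of 14 scaffolds and partners, Homer3, a postsynaptic adaptor of group I receptors, rose in HD by 0.24 and in LD by 0.34 on the log2 scale, where 0.819% of all genes were called higher in LD, and 0 were called in Se_HD or Se_LD. The HD call of Homer3 was lost without library 13 and without library 21, with log2 fold changes of 0.23 and 0.20. Its paralog Homer2, named after its values were seen, went the other way, with -0.31 in HD and a limma p of 0.0226 in the contrast but no call, and it was the 1 gene of this list called in the average over both diets, lower by 0.22. Of 11 genes of receptor desensitization, which include kinases and arrestins, 0 were called in LD, HD, Se_LD or Se_HD, and their median log2 fold change in HD was -0.10. Of 12 genes that supply or clear glutamate and NAAG, 0 were called in HD. Without Ctr library 13, 2 were called there, the cystine-glutamate exchanger Slc7a11 higher by 0.45 and the vesicular glutamate transporter Slc17a6, named after its values were seen, lower by 0.85, and without libraries 13 and 21 Slc7a11 alone was called. In Se_HD Slc7a11, which releases glutamate outside synapses, rose by 0.42 with a limma p of 0.0207, where 1.28% of all genes were called higher, and in the average over both diets it rose by 0.37. Slc17a6 was called higher in Se_LD, by 1.00. None of these pathway genes had an adjusted p under 0.05, with 0 of 62 in HD and in Se_HD.

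Markers of other cell types moved with the high dose. The shares of all genes in HD, 3.36% called higher and 1.73% lower, stand beside these counts. In HD, 10 of 10 microglia markers and 6 of 7 reactive astrocyte markers rose, and Gfap rose by 2.39 on the log2 scale with an adjusted limma p of 0.00716. The summed level of the microglia list was between 2693 and 2972 in Ctr and between 3399.7 and 7983 in HD, and that of the reactive astrocyte list between 2706 and 3273 in Ctr and between 5584 and 43437 in HD, or 14490 at most without library 21. Without that library 9 microglia and 3 reactive astrocyte markers were called, and without Ctr library 13 the counts were 10 and 3. Of 10 astrocyte markers, Aqp4, the water channel of astrocyte endfeet, and Aldh1l1 rose, with sums between 50937 and 60607 in Ctr and between 59216 and 67252 in HD, and the Aldh1l1 call was lost without library 13 and without library 21. Of 10 markers of inhibitory neurons, 2 fell, Gad1, an enzyme of GABA synthesis, by 0.45 and Pvalb, a calcium buffer of fast-spiking cells, by 0.59. Of the other 8, Npy, a neuropeptide named after its values were seen, stood at 0.65 on the log2 scale, at a limma p of 0.0539, and was not called. Without library 21 the Pvalb call was lost, at -0.41, and that of Gad1 held. The summed level of that list was between 6192 and 7137 in Ctr and between 4809 and 6115.5 in HD. Of 6 cortex markers tested, 2 fell, among them Tbr1, a transcription factor of cortical projection neurons, by 0.64, with sums between 1556 and 2466 in Ctr and between 1205 and 2358 in HD. Markers of excitatory neurons, dentate granule cells, oligodendrocyte precursors, thalamus and striatum had 0 calls in HD. In the average over both diets, where Grm2, Grm3 and Grm8 were called lower, 5.28% of all genes were called higher and 3.81% lower. There 10 of 10 microglia, 5 of 7 reactive astrocyte, 3 of 10 astrocyte and 2 of 8 striatum markers were called higher, and 2 of 10 inhibitory neuron and 2 of 6 cortex markers lower. The astrocyte count was 5 without library 21 and 2 without library 13, and the striatum count was 1 without each of them in turn and 0 without both. The part of these markers in the values of Grm2, Grm3 and Grm8 was not tested.

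The counts with selenium are given beside these, and the difference between the diets was not tested for the lists. In Se_HD, 1.28% of all genes were called higher and 0.777% lower, smaller shares than in HD. There 3 of 6 reactive astrocyte markers rose, Gfap by 0.51, Osmr, a cytokine receptor subunit, by 0.54 and Cp, a copper-carrying ferroxidase, by 0.70. The sums were between 2790.5 and 3804 in Se_Ctr and between 3652 and 4532 in Se_HD. In Se_HD, 0 of 10 astrocyte, 0 of 10 microglia, 0 of 10 inhibitory neuron and 0 of 6 cortex markers were called. The part of the reactive astrocyte markers in the Grm3 value of Se_HD was not tested. The astrocyte sums were between 49753 and 55992 in Se_Ctr and between 51156 and 54241 in Se_HD. In Se_LD, 5 of 8 thalamus markers were called higher, where 0.879% of all genes were, with sums between 1258 and 1999 in Se_Ctr and between 1411 and 3635 in Se_LD, beside the receptor values of that group.

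Within groups, Grm5 and Grm7 varied together from mouse to mouse. The values were taken as log2 of the normalized count plus 1 minus the group mean, over 30 libraries and 15 pairs of receptors. For Grm5 and Grm7 Pearson's r was 0.73 and Spearman's rho 0.76, with permutation p of 1e-05, the smallest that 100000 draws within groups can give, and 3e-05. The Benjamini-Hochberg values over the 15 pairs were 0.00015 and 0.00045. Without the 2 libraries farthest from the median of Grm5, r was 0.76. Grm4 and Grm8 had r = 0.48 and rho = 0.43, with adjusted permutation p of 0.0491 and 0.107 and r = 0.45 without the 2 farthest libraries of Grm4. The other 13 pairs had adjusted permutation p of at least 0.0698. The 2 receptors of a pair share the library, its depth and its dissection.

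**Figure D4:**
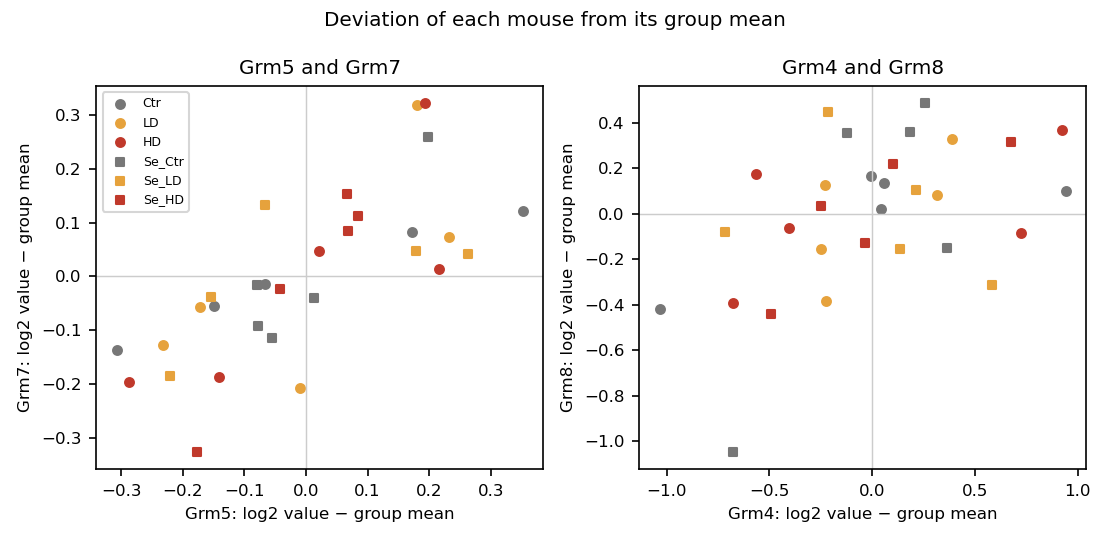
Deviation of each mouse from its group mean on the log2 scale, Grm5 against Grm7 on the left and Grm4 against Grm8 on the right, with 1 point per mouse coloured by group. The Grm5 and Grm7 points rise together (r = 0.73), and the Grm4 and Grm8 points scatter more widely (r = 0.48), with Se_Ctr library 28 lowest for Grm8.

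Over the same 30 libraries and 11088 genes, the 3 genes whose deviations were most like those of each receptor are given as a description. For Grm5 they were Gria2, a subunit of AMPA-type glutamate channels, with r = 0.94, Atf2, a transcription factor, with r = 0.91 and Opcml, a neuronal adhesion protein, with r = 0.91. For Grm7 they included Gng2, a G protein gamma subunit, with r = 0.86 and Bcl11b with r = 0.85. For Grm2 they were Wfs1 with r = 0.84, Ppp1r1a, a phosphatase inhibitor, with r = 0.82 and Pkig, an inhibitor of protein kinase A, with r = 0.78. For Grm3 they were Ube2f, Itga6 and Rbpj with r = 0.81, 0.77 and 0.77. For Grm4 they were Gdpd5, Zfp385a and Cuta with r = 0.80, 0.79 and 0.79, and for Grm8 Vwc2l, Hivep1 and Cbln4 with r = 0.82, 0.81 and 0.81. These libraries share depth and dissection, and such likeness was not tested.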

How the data were processed

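The authors sequenced stranded single-end libraries of hippocampus RNA from 30 mice. The submitters' processing notes name Trim Galore 0.4.2, HISAT2, featureCounts and DESeq2 and the build NCBIM37. The deposited signal values are read counts per gene that the authors divided by DESeq2 size factors, with a lowest sum of 11 reads per gene. In each of the 30 libraries 100% of values came out as whole reads within 0.01 reads. Groups were taken from the labels. The receptors and gene lists were chosen with earlier results of these data known. GENCODE's annotation on that build gave a symbol to 21326 of 21412 identifiers. Of 162 listed symbols 157 matched.

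limma 3.58.1 (R 4.3.3) with a variance trend was run on log2 values, after adding 1 to each normalized count, for genes summing to at least 10. Single-diet contrasts used 15 libraries, as in the study's order of tests, and selenium, averaged and interaction contrasts used 30. P-values were adjusted over all genes tested by the Benjamini-Hochberg method. Named genes are the 6 receptors, the listed genes called in HD or Se_HD, and the 3 genes most like each receptor among those averaging 50 or more normalized counts. The text gives a part of these genes, and some are not reported here. Homer2, Npy, Gng3, Adcy5 and Slc17a6 fall outside this rule and were named after their values were seen. Exact permutation tests were two-sided. The alternatives were edgeR 4.0.16, DESeq2 1.42.0 (both run on whole reads), pseudocounts of 0.1 and 10, other filters, quantile normalization, recomputed size factors, a covariate for each set of 6 consecutive library numbers, limma without the trend or without the F test, 1 fit over 30 libraries, and leaving out each mouse. The fits were tested on simulated data. Python 3.11.15, pandas 2.3.3, numpy 2.4.6, scipy 1.17.1 and matplotlib 3.10.9 were used. Proteomic data were not analysed here.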

Additional observations from a re-analysis of the deposited data

Results flagged for a closer look

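Among 42 groups of 5 mice tested for a value far from the rest, 3 exceeded Dixon's critical value of 0.71, where chance gives about 1 in 20, or 2.1 groups. Grm3 in Se_Ctr library 28 stood 399.6 normalized counts high against 343 to 356 in the other 4 mice, a gap ratio of 0.780. Grm7 in the same library was 611 against 471 to 505, with a ratio of 0.760. The same library held the lowest Grm8 value of the 30, at 25.1. Without it the log2 fold change of Grm3 in Se_HD was -0.19 with a limma p of 0.0193. HD library 15 had fewer reads on genes than the other HD libraries, with a ratio of 0.821. The Grm8 value of that library was the highest in HD, and without it the log2 fold change of Grm8 in HD was -0.70 with a limma p of 0.00177.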

How the results depend on the processing

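Grm8 in HD, Grm3 in Se_HD, and Grm2 and Grm3 in the average over both diets kept their direction and their call under every alternative run. Precision is limited by 5 mice per group and, for Grm8, by 28 to 87 reads per library. The labels give no replicate numbers that groups share and do not say that sets of 6 consecutive library numbers mark a batch, but each set holds 1 mouse per group. With the set as a covariate, which blocks on it, the calls of Grm8 in the average over both diets (limma p of 0.0526) and in Se_Ctr against Ctr (limma p of 0.0560) were lost, and the other calls of the receptors held. In the average over both diets, the count of 3 was 2 to 4 without each mouse.

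The count of receptors called in HD was 1. It was 2 with all 30 libraries in the fit, without the F test and with reads thinned to equal depth, and 3 without Ctr library 13 and HD library 21, the last 2 settings chosen after seeing the data. Leaving out each mouse gave 1 to 2. In LD the count of 0 became 2 without those 2 libraries and 0 to 2 without each mouse. In Se_HD the count of 2 became 1 without the trend and with all 30 libraries in the fit, and 1 to 2 without each mouse. In Se_Ctr against Ctr the count of 1 became 0 with quantile normalization, with the covariate, without the trend, with edgeR, with DESeq2 and with thinned reads, and 0 to 1 without each mouse. Leaving out each mouse gave 0 to 1 in Se_LD, in Se_LD against LD and in both interactions. With Ctr library 13, Se_Ctr library 16 or Se_HD library 6 left out, Grm8 passed in the high-dose interaction. With Se_Ctr library 28 left out, the Grm8 difference there was 0.28 on the log2 scale, the lowest of these fits, and did not pass. With LD library 8 or Se_Ctr library 28 left out, Grm3 passed in the low-dose interaction. Without LD library 8 Grm3 was also called between Se_LD and LD, at 0.20. Without length correction Grm7 took place 2 and Grm3 place 3.

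Log2 fold changes that were not called changed sign in some settings. Grm5 in Se_HD was 0.019 with quantile normalization and -0.023 to 0.047 without each mouse. Grm8 in Se_HD was 0.029 with thinned reads and -0.32 to 0.062 without each mouse. Grm7 averaged over both diets was 0.017 without libraries 13 and 21 and -0.057 to 0.024 without each mouse. Without each mouse, Grm2 in LD ranged from -0.32 to 0.0051, Grm7 in HD from -0.022 to 0.11, and the high-dose interaction of Grm3 from -0.0099 to 0.12. In Se_LD the ranges were -0.27 to 0.034 for Grm2, -0.0086 to 0.34 for Grm4, -0.091 to 0.0077 for Grm7 and -0.088 to 0.29 for Grm8. The cause of these changes was not tested.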
